A study of Saccharomyces cerevisiae with 4 samples.

Results

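The genes described here are 10 genes of NAD synthesis in budding yeast (Saccharomyces cerevisiae): 6 enzyme genes of the de novo route (BNA2, BNA7, BNA4, BNA5, BNA1 and BNA6), the nicotinic acid transporter gene TNA1, and the 3 genes of the repressor made of Sum1, Rfm1 and Hst1. All 10 are named by the probe annotation, each on 1 probe set, out of 5656 genes measured. BNA3, a further BNA gene on the arrays, is not one of the 10 and is given with the related genes. They were chosen by the difference in their signals between the H3 mutant and wild type, which is the only comparison these arrays allow, so those differences are described and not tested.

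The tested cells carry histone H3 with arginine in place of lysines 4, 36 and 79 (H3 K4,36,79R), and the control cells carry wild-type H3, with 2 arrays from each. All cultures grew in selective galactose medium and were then held in selective glucose medium for 9 h before total RNA was taken at an OD600 of 0.5 to 0.7. In the mutant, glucose turns off the gene for wild-type H3 and leaves mutant H3 as the only form being made, so its RNA was taken 9 h after that switch and not from cells that had never made wild-type H3. The series text calls the arrays of a group replicate cultures, and the labels give neither mating type nor other strain markers.

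NAD is a carrier of electrons and also the substrate that sirtuin deacetylases consume. Yeast makes it from tryptophan through the kynurenine route of the BNA enzymes, or takes up and salvages nicotinic acid and nicotinamide. Hst1 is an NAD-dependent histone deacetylase, and with the DNA-binding protein Sum1 and the linking protein Rfm1 it is known to repress BNA genes and TNA1 when NAD is plentiful, as well as genes of the middle phase of sporulation.

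In the H3 mutant, 5 of the 6 BNA genes and TNA1 had lower signals than in wild type on every pair of arrays. Mean signals were 3.14 times lower for BNA1, 2.74 times for TNA1 and 2.70 times for BNA6, against 1.43 to 1.79 times for BNA5, BNA4 and BNA7, while BNA2, the first enzyme of the route, was higher. Within the repressor the subunits went different ways: SUM1 was lower, HST1 was higher and RFM1 overlapped between the groups. In all, 7 of the 10 genes lay below wild type without overlap, where 27.2% of all genes do, and 2 lay above it, where 28.1% do (55.2% of all genes in either direction). These counts follow from the way the genes were chosen, and nothing is read from them.

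The signals below are the deposited intensities after each array was scaled to the same median. A log2 difference is the mutant mean minus the wild-type mean of log2(signal + 5.71), where 5.71 is the pseudocount, so it understates the change of dim genes. Signals of different probe sets cannot be compared as levels, and on RNA from whole cultures fewer transcripts in every cell and fewer cells with the transcript cannot be told apart.

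**Figure D1:**
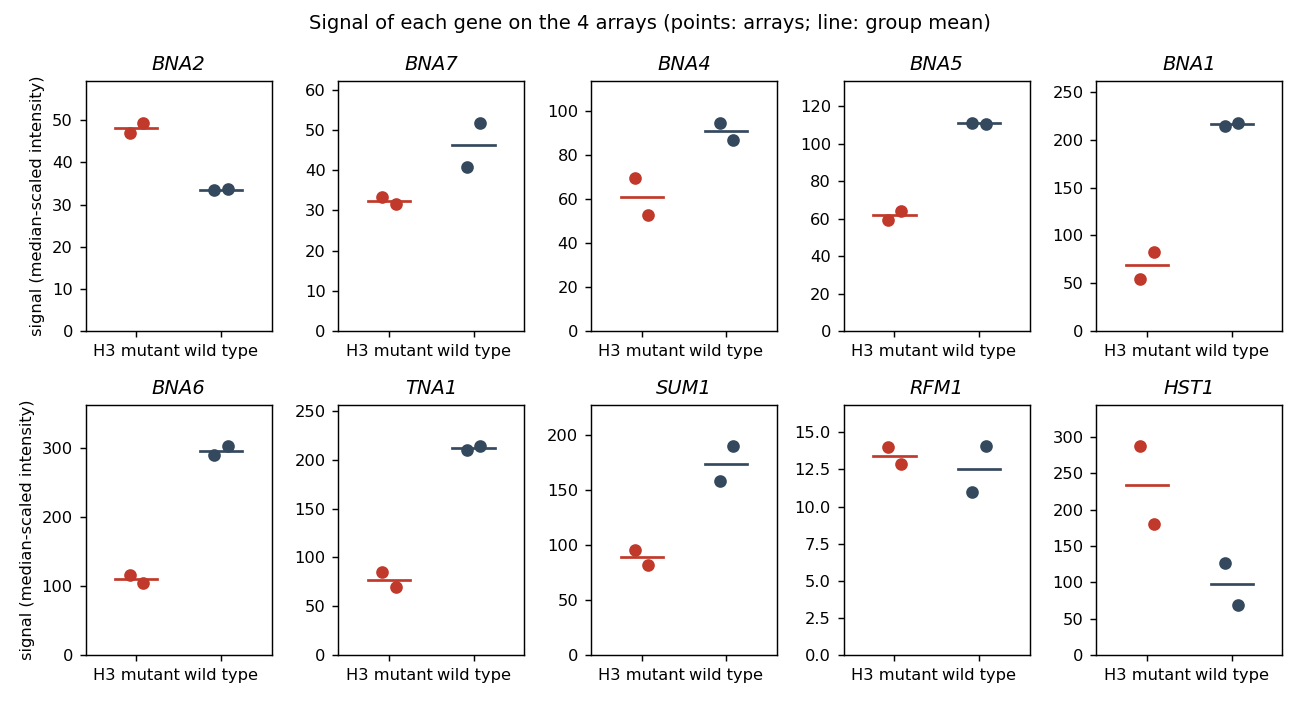
Signal (median-scaled intensity, linear axis from 0) of each of the 10 genes on the 2 H3 mutant arrays (red) and the 2 wild-type arrays (dark blue), with a line at each group mean. The mutant points lie below the wild-type points for 7 genes and above them for BNA2 and HST1, and the groups overlap for RFM1.

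BNA2 encodes tryptophan 2,3-dioxygenase, which opens the indole ring of tryptophan and starts the route. It read 47.0 and 49.4 in the H3 mutant arrays and 33.4 and 33.6 in the wild-type arrays. Both mutant arrays were above both wild-type arrays, and arrays of a group lay close together. The ratio of means was 1.44 and the log2 difference was 0.46 (SE 0.15, n = 2 per group). BNA2 was the only BNA gene of the 6 with a higher signal in the mutant.

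BNA7 encodes the formamidase that frees kynurenine, and it read 33.2 and 31.6 in the mutant against 40.9 and 51.8 in wild type. The wild-type arrays differed from each other by more than the gap between the higher mutant array and the lower wild-type array, and the log2 difference was -0.44 (SE 0.17). BNA4 encodes kynurenine 3-monooxygenase, and it read 69.5 and 52.7 in the mutant against 94.6 and 86.9 in wild type, a log2 difference of -0.54 (SE 0.18). Here the mutant arrays differed from each other about as much as from the nearer wild-type array, although the groups did not overlap. BNA5 encodes kynureninase, which cuts the side chain from hydroxykynurenine. Its signals were 59.5 and 64.2 in the mutant and 111 and 111 in wild type, a ratio of means of 0.557 and a log2 difference of -0.79 (SE 0.15). The arrays of each group lay within a small part of that gap.

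BNA1 encodes 3-hydroxyanthranilate dioxygenase, whose product turns into quinolinic acid. It read 54.7 and 82.9 in the mutant and 214 and 218 in wild type, so that it averaged 68.8 ± 19.9 in the mutant and 216 ± 2.41 in wild type (SD, n = 2). The ratio of means was 0.319, and over the 4 pairs of a mutant and a wild-type array the ratio ran from 0.251 to 0.387. Its log2 difference of -1.60 (SE 0.21) was the 7th lowest of the 5656 genes. The mutant arrays differed by a log2 value of -0.55, replicate 1 minus replicate 2, the widest gap between mutant arrays among the 6 enzyme genes.

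BNA6 encodes quinolinate phosphoribosyltransferase, which makes nicotinic acid mononucleotide, the point where the de novo and salvage routes meet. Its signals were 115 and 104 in the mutant and 290 and 302 in wild type, means of 109 ± 7.85 and 296 ± 8.73 (SD, n = 2). The array pairs gave ratios of 0.344 to 0.397, a narrower range than for BNA1, and the log2 difference was -1.39 (SE 0.15), the 14th lowest of all genes.

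TNA1 encodes the high-affinity transporter of nicotinic acid, which also carries quinolinic acid. It read 85.0 and 69.5 in the mutant and 210 and 214 in wild type, means of 77.2 ± 11.0 and 212 ± 2.80 (SD, n = 2). The array pairs gave ratios of 0.325 to 0.405, and the log2 difference of -1.40 (SE 0.16) was next to that of BNA6, the 13th lowest of all genes. The genes of the nicotinic acid transporter and of the last enzyme of the de novo route thus differed from wild type by nearly the same factor.

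SUM1 encodes the DNA-binding subunit of the repressor. It read 95.9 and 81.8 in the mutant and 158 and 190 in wild type, means of 88.8 ± 9.99 and 174 ± 22.2 (SD, n = 2), with a ratio of means of 0.510. Its log2 difference was -0.93 (SE 0.17), and the groups did not overlap.

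HST1 encodes the deacetylase subunit, a relative of Sir2. Its signals were 287 and 181 in the mutant and 126 and 68.6 in wild type, means of 234 ± 75.2 and 97.3 ± 40.6 (SD, n = 2). Replicate 1 was the brighter array in both groups, and the gap between arrays of a group was wide, with log2 values of 0.65 between the mutant arrays and 0.83 between the wild-type arrays. The array pairs gave ratios from 1.44 to 4.19. The log2 difference was 1.24 with an SE of 0.32, the widest SE of the 10 genes, and the 35th highest of all genes. Without wild-type replicate 1 it was 1.65, and without wild-type replicate 2 it was 0.83.

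RFM1 encodes the subunit that links Hst1 to Sum1. It was dim, at 14.0 and 12.8 in the mutant and 11.0 and 14.0 in wild type, and the arrays of both groups overlapped. Its log2 difference was 0.07 (SE 0.16). It was -0.05 when wild-type replicate 1 was left out, and -0.20 on the unscaled deposited values, where the median of all genes was -0.32. No direction is given for RFM1.

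**Figure D2:**
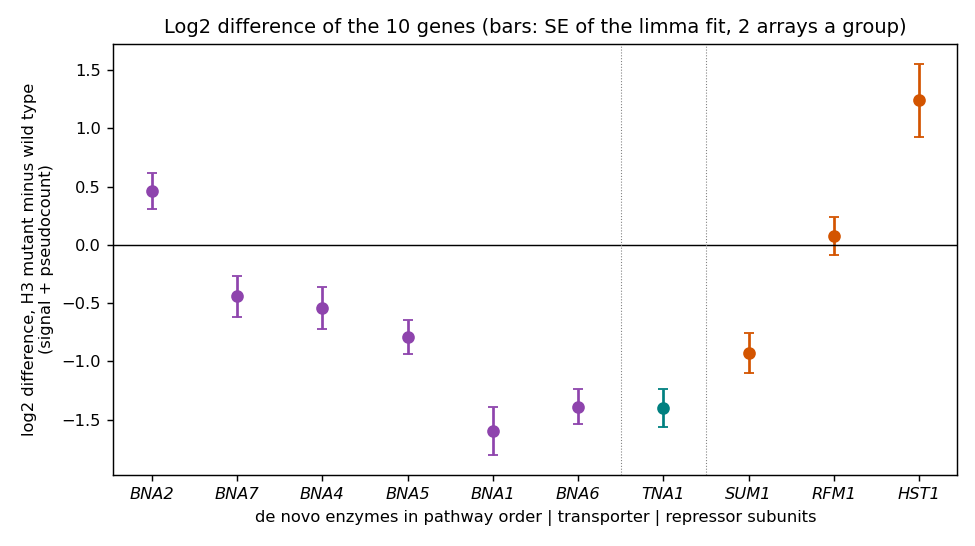
Log2 difference of signal plus pseudocount, H3 mutant minus wild type, for the 6 de novo enzyme genes in the order of their reactions, the transporter gene and the repressor subunit genes. Points are estimates and bars the SE of the limma fit, and values run from -1.60 for BNA1 to 1.24 for HST1.

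In the order of their reactions the BNA genes had log2 differences of 0.46 (BNA2), -0.44 (BNA7), -0.54 (BNA4), -0.79 (BNA5), -1.60 (BNA1) and -1.39 (BNA6). The values for the early steps were thus nearer 0 than those for the last steps, as the plot of log2 differences shows. Ranked by log2 difference, the 10 genes ran from BNA1 through TNA1, BNA6, SUM1, BNA5, BNA4, BNA7, RFM1 and BNA2 to HST1. Since the same values chose and sorted the genes, the SEs beside the steps test nothing. Each joins the SEs of its 2 genes as if they were independent, although both genes were read on the same arrays. It is therefore only a rough guide to the spread of a step. The step from TNA1 to BNA6 was 0.01 with an SE of 0.22, that from BNA4 to BNA7 was 0.10 (SE 0.25), and that from SUM1 to BNA5 was 0.14 (SE 0.22). The step from BNA1 to TNA1 was 0.20 (SE 0.26). Each of these steps was smaller than its SE, and that from BNA5 to BNA4 was 0.25 (SE 0.23). The steps from BNA6 to SUM1 (0.46, SE 0.23), from BNA7 to RFM1 (0.51, SE 0.24) and from BNA2 to HST1 (0.78, SE 0.35) were slightly more than 2 times their SE. The step from RFM1 to BNA2 was 0.38 (SE 0.22).

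Ratios of 2 of these genes on the same array do not depend on how the arrays are scaled. The log2 ratio of BNA1 over BNA2 was 0.22 and 0.75 in the mutant arrays, against 2.68 and 2.69 in the wild-type arrays. That of BNA6 over BNA2 was 1.29 and 1.07 in the mutant, against 3.12 and 3.17 in wild type. The last enzymes of the route thus differed from the first, mutant minus wild type, by a log2 value of -2.21 for BNA1 and -1.96 for BNA6. The log2 ratio of TNA1 over BNA2 was 0.85 and 0.49 in the mutant and 2.65 and 2.67 in wild type. For HST1 over SUM1 the log2 ratio was 1.58 and 1.15 in the mutant and -0.33 and -1.47 in wild type, a mean difference of 2.26. Each of these ratios kept the groups apart, but that separation was fixed in advance. BNA1, BNA6, TNA1 and SUM1 lay below wild type on every array pair, and BNA2 and HST1 lay above it. The sizes do not say which gene of a ratio moved.

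The genes of NAD metabolism outside the group, and other genes linked to Hst1 or Sum1, were followed in 8 lists with 82 measured genes. By limma none of the 82 genes passed a Benjamini-Hochberg adjusted p under 0.05, where 1.87% of all genes did (1.03% higher and 0.849% lower). An unadjusted p under 0.05 was reached by 14 of the 82 genes, or 17.1%, and by 23.2% of all genes. Limma without a variance trend also called none of the 82, with 12 at an unadjusted p under 0.05. The median log2 difference was 0.08 over the 82 genes and 0.02 over all genes.

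BNA3 encodes an aminotransferase that draws kynurenine off the route to kynurenic acid. It read 60.4 and 45.0 in the mutant and 39.7 and 35.6 in wild type, a log2 difference of 0.42 (SE 0.19, adjusted p = 0.233). The related aminotransferase gene ARO9 had -0.05.

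The 12 genes of salvage and of the steps both routes share had a median log2 difference of -0.26, with 9 below 0 and 7 of them without overlap between the groups, beside the 27.2% of all genes given above. The lowest was NPT1, which turns nicotinic acid into its mononucleotide. It read 182 and 128 in the mutant and 229 and 235 in wild type, a log2 difference of -0.58 (SE 0.20, adjusted p = 0.145). URH1, a nucleosidase that also cleaves nicotinamide riboside, was close to it at -0.58 (SE 0.19, adjusted p = 0.138). The adenylyltransferase genes NMA1 and NMA2 had -0.32 and -0.37, and QNS1, the NAD synthetase gene of the final step, had -0.28 with overlapping groups. The nicotinamidase gene PNC1 had 0.13, and the highest value was 0.32 for the nucleoside phosphorylase gene PNP1.

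Among 6 genes for NAD kinases, mitochondrial NAD carriers and an NADH pyrophosphatase, POS5 had the highest value. It encodes the mitochondrial NADH kinase and read 122 and 100 in the mutant and 67.3 and 58.1 in wild type, a log2 difference of 0.77 (SE 0.17, adjusted p = 0.0659). The lowest was NPY1, the pyrophosphatase gene, at -0.31 (adjusted p = 0.277).

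The 4 other sirtuin genes had log2 differences from 0.01 for HST4 to 0.28 for SIR2, each with overlapping groups, beside 1.24 for HST1. The difference between HST1 and these genes was not tested. Hst1 is also a subunit of the Set3 complex, which binds H3 methylated at lysine 4. The 6 other genes of that complex had a median log2 difference of -0.01, from -0.27 for SET3 to 0.35 for the cyclophilin gene CPR1.

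Middle sporulation genes, a class that Sum1 keeps silent in growing cells, were mostly too dim to read. Of 26 measured genes 14 had a mean signal below the pseudocount. Their median log2 difference was 0.13, and 10 lay above and 3 below wild type without overlap, where all genes gave 28.1% and 27.2%. GIP1, a meiotic phosphatase regulator, had the highest value at 0.42 and read 2.00 and 3.94 in the mutant and 0.54 and 0.95 in wild type, all under the pseudocount. SPO77 had the lowest at -0.79 (SE 0.21, limma adjusted p = 0.0994). It read 0.57 and 4.03 in the mutant, both under the pseudocount, and 8.03 and 7.63 in wild type. NDT80, the activator of the class, read 10.1 and 6.04 in the mutant and 12.5 and 10.7 in wild type. On the values as deposited the list median was -0.02, where that of all genes was -0.32.

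Thiamine genes, which Hst1 has been reported to repress, had a median of 0.19 over 13 genes. THI72, a gene for a THI7-like transporter, had the highest value, 1.12 (SE 0.25, adjusted p = 0.0659), on a probe set marked as sharing sequence, and the regulator gene THI2 had the lowest, -0.25. The probe set that the 4 genes THI5, THI11, THI12 and THI13 share read 108 and 121 in the mutant and 133 and 128 in wild type. For tryptophan synthesis and uptake, which supply the route, the median was 0.08 over 12 genes. TRP1 had the highest value, 0.80 (adjusted p = 0.0539), but read 6.09 and 3.61 in the mutant and 0.36 and 0.26 in wild type, near or below the pseudocount. TRP1 is a common selection marker of laboratory strains, and the strains' markers are not given in the labels. ARO7, of the branch to phenylalanine and tyrosine, had the lowest, -0.45.

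**Figure D3:**
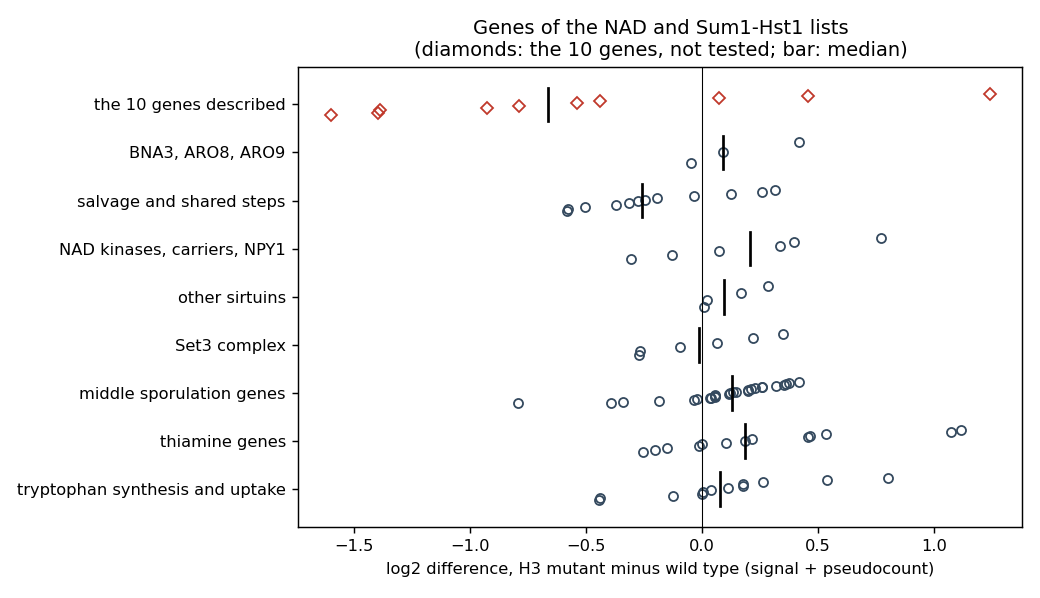
Log2 difference, H3 mutant minus wild type, of the 10 genes (red) and of the genes in 8 related lists (dark blue), with a bar at each median. The 10 genes, chosen for their differences and drawn as diamonds, run from -1.60 to 1.24, and none of the 82 list genes, from -0.79 to 1.12, passed the test.

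The genes on both sides of each of the 10 in the reference gene order (assembly R64) were also read. All 20 neighbours were measured, with a median log2 difference of -0.10, and 1 of them passed the test, as a lower gene, where 0.849% of all genes did. It was MDE1, an enzyme gene of methionine salvage next to BNA1, which read 83.0 and 105 in the mutant and 206 and 183 in wild type and fell by 1.02 on the log2 scale (SE 0.17, limma adjusted p = 0.0426). The log2 difference of MDE1 was -0.86 without mutant replicate 1 and -1.17 without mutant replicate 2. In those fits, which have 1 residual degree of freedom and take the spread from the wild-type pair alone, no gene passed. On the other side of BNA1 the retrotransposon gene YJR027W, on a probe set marked as sharing sequence, had -0.12.

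BNA6 is the 10th gene from its chromosome end, and its neighbours CNN1 and RMD8 had -0.19 and -0.20, against -1.39 for BNA6 itself. BNA4, the 16th from an end, lay between ATP1 at 0.21 and BRN1 at -0.15. Beside TNA1, RAD2 had -0.11 and the adaptor subunit gene APL6 had -0.56 (adjusted p = 0.0994). The lower of the values beside SUM1 was -0.49, for the transcription factor subunit gene TFB1, and FSH3, beside RFM1, had -0.59 (adjusted p = 0.0922), both without overlap between the groups. Both neighbours of BNA2 were above 0, with 0.40 for the phosphate carrier gene MIR1 and 0.81 for YJR079W (adjusted p = 0.0659). The neighbours of HST1, NUF2 and RTG1, had 0.05 and 0.19.

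**Figure D4:**
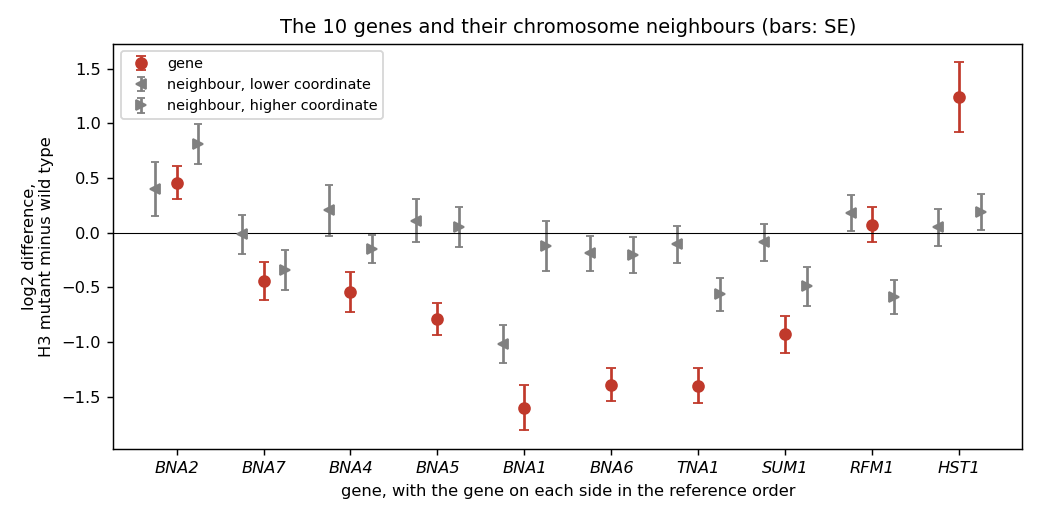
Log2 difference, H3 mutant minus wild type, of each of the 10 genes (red circles) and of the genes on either side of it in the reference order (grey triangles), with bars for the SE. Most neighbours lie near 0, and MDE1, to the lower-coordinate side of BNA1, is the lowest at -1.02.

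Over the 4 arrays, 5646 other genes were compared with the mean centred log2 profile of the 6 BNA genes. The 5 nearest were YOR238W, NCB2, YNCC0001C, TAD1 and ARB1, at Euclidean distances of 0.03 to 0.07. YNCC0001C was read on a probe set marked as sharing sequence. Of the BNA genes themselves only BNA5 lay close to that mean, with 13 other genes nearer, while 3887 other genes were nearer than BNA1 and 4807 nearer than BNA2. The mean profile therefore describes few of the enzyme genes.

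Across the whole set of genes 58 were called higher and 48 lower in the mutant by limma, at an adjusted p under 0.05. The highest log2 difference was 4.08, for URA3, and the lowest was -2.23, for HO. The labels do not give strain markers, and whether the strains differ in more than H3 was not tested. Mutant arrays correlated with each other at r = 0.983 over log2 values, wild-type arrays at 0.986, and arrays of different groups at 0.959 to 0.975. With 2 arrays in a group the precision is limited. The ribosomal RNA controls (10 probe sets) were all higher in the mutant, by a median log2 difference of 1.43. For ACT1 the signal at the 3' end divided by that at the 5' end was 1.19 and 1.23 in the mutant and 1.14 and 1.13 in wild type. Summed signals of 6 genes specific to a cells were 2292 and 1559 in the mutant and 2563 and 2832 in wild type. Those of 4 genes specific to alpha cells were 120 and 106 against 81.3 and 68.6, and those of 5 haploid genes were 582 and 506 against 677 and 716. None of these genes was at 0 and none passed the limma threshold. The genes within a sum did not all move alike. Of the a-cell genes MFA1, STE2, STE6 and BAR1 were lower without overlap, and MFA2 and AGA2 overlapped between the groups. MFA1 was read on a probe set marked as sharing sequence. Of the alpha-cell genes STE3 was lower, at 6.66 and 7.47 against 8.75 and 8.50. SAG1, at 64.7 and 62.3 against 40.0 and 32.3, MF(ALPHA)1 and MF(ALPHA)2 were higher. The part of these measures in the differences of the 10 genes was not tested.

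**Figure D5:**
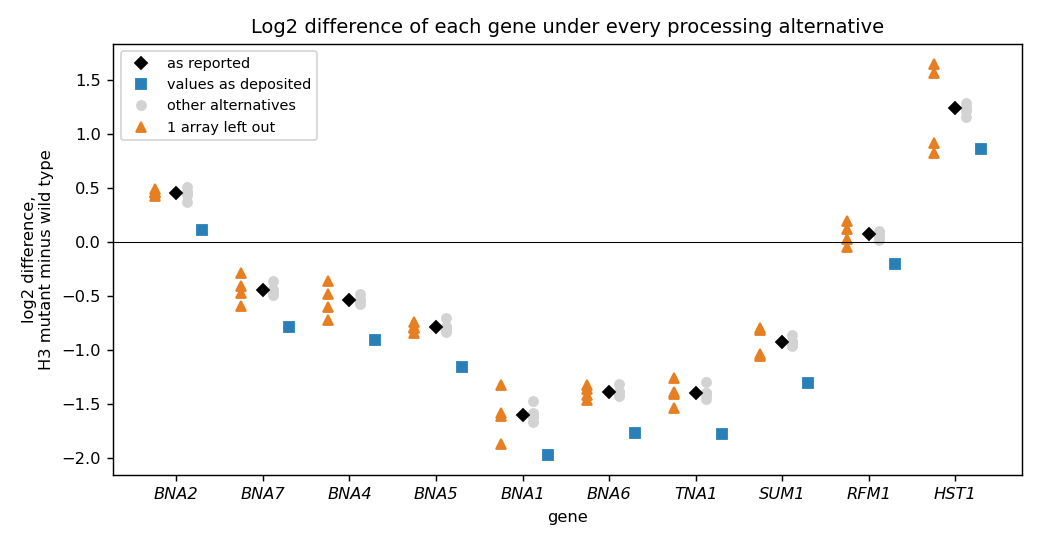
Log2 difference of each of the 10 genes, H3 mutant minus wild type, as reported (black diamonds), on the values as deposited (blue squares), with 1 array left out (orange triangles) and under the other alternatives (grey circles). Apart from RFM1, each gene stays on 1 side of 0.

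For 9 of the 10 genes the direction was the same under all 13 processing alternatives. The exception was RFM1, whose values were near 0. Much of this sameness was fixed in advance. Leaving out dim genes, using all probe sets, dropping the variance trend and adding a replicate block cannot change these values. Leaving out an array cannot turn the sign of a gene whose groups do not overlap, as holds for the 9 genes. Another pseudocount keeps the order of the arrays, so it cannot turn that sign either. Only the other scalings could have turned a direction. The range was -1.98 to -1.32 for BNA1, -1.77 to -1.31 for BNA6, -1.77 to -1.26 for TNA1, -1.30 to -0.80 for SUM1, 0.11 to 0.51 for BNA2 and 0.83 to 1.65 for HST1. Of these genes BNA2 came nearest to 0, at 0.11 without scaling of the deposited values, a setting in which all genes had a median of -0.32. With mutant replicate 1 left out BNA1 had -1.32 and BNA6 -1.46, and with mutant replicate 2 left out they had -1.88 and -1.32.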

How the data were processed

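Total RNA (about 20 ug per sample) was labelled with biotin and put on single-colour Affymetrix arrays, per the labels. The deposited values are linear intensity signals. The submitters' processing notes name MAS5, with no version given. The mutant arrays carry a further constant: their trimmed means (2 to 98 percent) are 0.850 and 0.701 of the wild-type mean. The origin of these constants is unknown, and median scaling removes them, which changes counts of calls strongly. Each array was therefore divided by its median over 9335 probe sets and multiplied by the mean median, and log2 was taken after adding 5.71, the 20th percentile. In the platform annotation 6504 probe sets have 1 symbol, and all of these matched the R64 gene table. A further 328 have several symbols, 2443 have none and 60 are controls. For each of 5656 genes 1 probe set was used, without a shared-sequence suffix where possible, then the brightest, which left 211 genes on suffixed sets.

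Groups come from the sample titles. Differences were fitted with limma 3.58.1 under R 4.3.3, using lmFit and trended eBayes, with two-sided p-values adjusted by Benjamini-Hochberg over all genes and a threshold of 0.05. Named genes are the 10 genes, every gene called in the lists, the highest and lowest of each list and the 5 nearest profiles. URH1, NMA1, NMA2, QNS1, PNC1 and NDT80 were named after their values were seen, and the chromosome neighbours and within-array ratios were added after the data had been examined. The members and lists were chosen with earlier results of these data known. Alternatives were other scalings, pseudocounts, filters, probe sets, variance models, a replicate block and leaving out each array. A planned description of promoter motifs was not made, since promoter sequences were not used here.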

Additional observations from a re-analysis of the deposited data

How the results depend on the processing

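Counts of calls depended on the processing far more than the differences of the 10 genes did. As reported, 58 genes were higher, 48 lower, none of the 82 list genes was called and the median of the 6 BNA genes was -0.66. On the values as deposited 1065 genes were lower, 12 list genes lower and 1 higher, and the BNA median was -1.03, with the median of all genes at -0.32 in place of 0.02. That shift follows from the constants on the mutant arrays. Trimmed mean scaling gave 38 genes higher, leaving out dim genes 92 higher, eBayes without trend 30 lower, and all probe sets 11 higher and 21 lower. A pseudocount of 1 gave 1 list gene higher and a BNA median of -0.70, and a pseudocount of 16 a BNA median of -0.59. With the replicate block 425 genes were higher and 283 lower, and 4 list genes were higher and 1 lower. Nothing in the labels pairs cultures by number, and same-numbered arrays deviated from their group means with r = -0.02 across genes. With 1 array left out, genes higher ran from 0 to 196, genes lower from 0 to 85, list genes higher from 0 to 3, list genes lower from 0 to 1 (SPO77, lower, with THI21, THI72 and TRP1 higher without wild-type replicate 1, and SPO77 and TRP1 without wild-type replicate 2), and the BNA median from -0.73 to -0.63. Both zeros over all genes came from leaving out a mutant array, where limma has 1 residual degree of freedom, the lone mutant array is assumed to vary like the wild-type pair, and 1510 and 2139 genes had an unadjusted p under 0.05 (1314 as reported). Of 130 differences of single genes under alternatives, 118 moved by less than the spread between replicates, as did 82 of 104 list medians. For the single genes much of this was fixed in advance. Leaving out dim genes, using all probe sets, dropping the variance trend and adding the block leave each of the 10 differences as it was. Leaving out an array cannot move a single gene's difference past that spread. The count of 118 therefore says little about stability. The cause of these moves, other than the constants, was not tested. Dim signals near the pseudocount limit RFM1, TRP1 and most middle sporulation genes.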
